A study of Mus musculus with 8 samples.

Results

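Transcripts of the Wnt signalling pathway were examined in dnBrg1 and wild type mouse lenses at embryonic day 15.5 (E15.5). The group was chosen by name, as 36 genes for ligands, receptors, secreted modulators and intracellular components. Every probe set that the platform annotation assigns to one of these genes alone was taken. This gave 70 of the 22626 probe sets compared, for 35 of the 36 genes, and Tcf7 was not analysed here. The dnBrg1 lenses (n = 4) carried a transgene in which the αA-crystallin promoter drives a dominant-negative Brg1, the ATPase of SWI/SNF chromatin remodeling complexes, with a substitution in its ATP-binding motif. The study describes this promoter fragment as active in postmitotic lens fiber cells and worked with a single heterozygous founder line. The wild type lenses (n = 4) came from littermates without the transgene, and both groups were of a mixed background. RNA of whole lenses was hybridized to Affymetrix mouse genome arrays, and the comparison asks which Wnt pathway transcripts rise or fall when the dominant-negative Brg1 is made. The record of the RNA is in conflict. The methods and the molecule given for all 8 samples are total RNA, while the free description adds polysome-bound RNA for dnBrg1 replicates 1 and 2 and every wild type sample and not for dnBrg1 replicates 3 and 4. Among the 70 probe sets, calls that were lost with this described RNA fraction as a covariate are named beside their values. So are those lost with dnBrg1 replicates 1 and 2 alone. Only dnBrg1 replicates 3 and 4 differ in the description, so both settings give the same log2 fold change. They are not separate checks. For genes outside the group such losses are not named gene by gene.

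Wnt proteins are secreted, lipid-modified ligands that bind Frizzled receptors. In the absence of ligand, a cytoplasmic complex built on Axin and Apc lets the kinases Csnk1a1 and Gsk3b mark β-catenin for degradation. When Wnt engages Frizzled together with Lrp5 or Lrp6, Dishevelled disables this complex, and β-catenin enters the nucleus and activates genes with TCF/LEF factors, which are otherwise held silent by Groucho/Tle repressors. Other Wnt signals act without β-catenin, through Ror2, Ryk and the planar cell polarity protein Vangl2. In the lens the β-catenin branch is known for its part in the epithelium, and the polarity branch for the alignment of fiber cells.

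Several measures of the whole series bear on these transcripts. Smarca4, the gene for Brg1, read from 9.65 to 9.88 (log2 intensity) in dnBrg1 lenses and from 6.79 to 7.87 in wild type lenses with the dimmer of its probe sets, and the brighter was not called (-0.24 on the log2 scale, adjusted p = 0.12). All 6 measured lens fiber markers were bright, with means from 10.01 to 14.39 (2 called higher and 1 lower). The summed intensity of 6 lens epithelium markers was between 35100 and 38800 in dnBrg1 lenses. In wild type lenses it was between 31000 and 34700 (2 of the 6 called higher, none lower). For the array's own β-actin control, signal at the 3' end minus signal at the 5' end averaged 0.58 ± 0.06 (log2, SD, n = 4) in dnBrg1 lenses and 2.50 ± 0.48 (SD, n = 4) in wild type lenses. For the Gapdh control it averaged 0.67 ± 0.02 (SD, n = 4) in dnBrg1 lenses and 1.59 ± 0.58 (SD, n = 4) in wild type lenses. The groups did not overlap for either control (two-sided exact permutation p = 0.029, the smallest that 70 assignments allow). Without any 1 dnBrg1 sample Gapdh did not pass (exact permutation p = 0.0571), though its group difference stayed between -0.94 and -0.92. The mean of both controls was 1.43 in wild type replicate 3, 1.90 in replicate 1, 2.20 in replicate 4 and 2.66 in replicate 2. Among markers of other tissues, the summed intensity of 6 retina markers was between 5320 and 6120 in dnBrg1 lenses and between 7930 and 10600 in wild type lenses (3 of the 6 called lower, none higher). That of 8 macrophage markers was between 2960 and 5390 in dnBrg1 lenses and between 8740 and 10400 in wild type lenses (3 called higher and 2 lower). For 7 markers of periocular mesenchyme and cornea it was between 1260 and 10200 in dnBrg1 lenses and between 2360 and 5170 in wild type lenses, with none called. The part of these markers in the Wnt pathway values was not tested. In RNA of a whole lens, fewer cells of a type and less RNA per cell cannot be told apart.

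A probe set is called when its limma p-value, adjusted over all 22626 probe sets, is under 0.05, and positive log2 fold changes mean more in dnBrg1. The ± gives the standard error of a log2 fold change, or the SD where it is named. Where a gene has several probe sets they are numbered by mean intensity, set 1 being the brightest. Of the 70 Wnt pathway probe sets, 28 (40.0%) were called, against 40.8% of all probe sets. Upregulation was called for 22 (31.4%, against 19.8% of all) and downregulation for 6 (8.57%, against 21.0%). The groups did not overlap in 29 (41.4%, against 40.1%). The median log2 fold change was 0.17 over these probe sets and -0.08 over all. At least 1 probe set was called in 20 of the 35 genes and none in 15. No such share over all genes is given, and a gene with several probe sets has more chances of a call, so this count is not a result about the Wnt genes. On the brightest probe set of each gene the picture was different. There 5 genes (14.3%) were upregulated and 4 (11.4%) downregulated, 9 of 35 in all (25.7%). Over all genes on their brightest probe sets 40.7% were called, 17.5% higher and 23.3% lower. The dimmer probe sets of genes with several carried most of the increases. Of 35 such probe sets, 17 (48.6%) were called higher and 2 (5.71%) lower, against 24.9% and 18.0% of the dimmer probe sets of all genes.

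**Figure D1:**
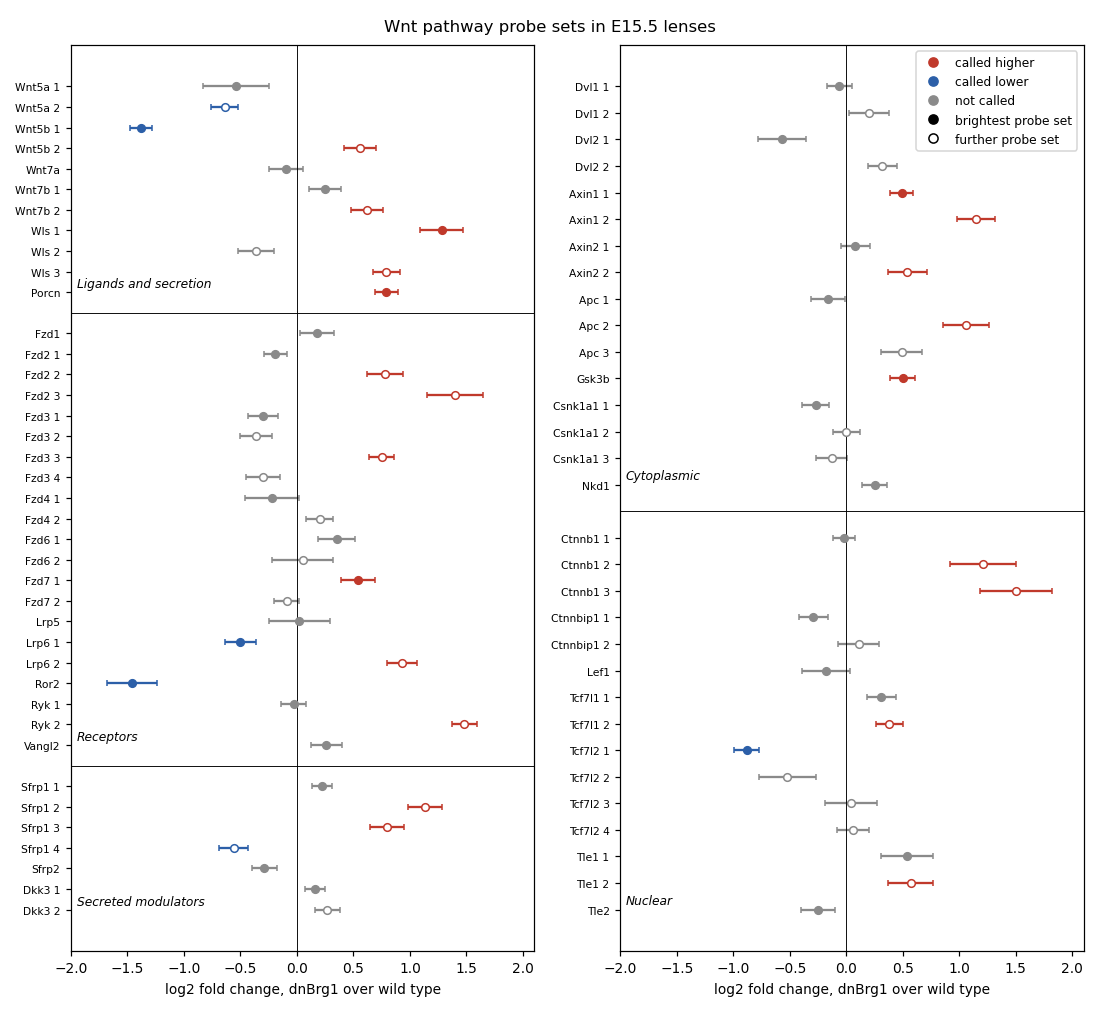
Log2 fold change with standard error (horizontal axis) of all 70 Wnt pathway probe sets, by gene and role (vertical axis; the number after a symbol ranks the gene's probe sets by mean intensity). Filled points are the brightest probe set of a gene and open points the others; 22 probe sets were called higher (red) and 6 lower (blue), and 17 of the 22 increases are open points.

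Of the 11 probe sets for ligands and the proteins that secrete them, 5 were called higher, 2 lower and 4 were not called. The share called was 63.6%, against 40.8% of all probe sets. The genes for both secretion proteins were upregulated. Wls carries Wnt proteins to the cell surface. With set 1 (1437434_a_at) it read 9.98, 9.93, 9.80 and 10.10 in dnBrg1 replicates 1 to 4, against 8.88, 8.25, 9.13 and 8.42 in wild type replicates 1 to 4, a 2.44-fold increase (log2 fold change 1.28 ± 0.19, adjusted p = 0.00062). The groups were well apart, with the lowest dnBrg1 sample above the highest wild type sample. With set 3 it read 9.43, 9.31, 8.93 and 9.26 in dnBrg1 lenses, against 8.37, 8.41, 8.47 and 8.50 in wild type lenses (0.79 ± 0.12, adjusted p = 0.00077). Here too all dnBrg1 samples lay above all wild type samples. Set 2 did not pass and had the opposite sign, with 8.71, 8.91, 8.81 and 9.19 in dnBrg1 lenses and 9.19, 9.54, 8.90 and 9.45 in wild type lenses (-0.36 ± 0.16, adjusted p = 0.10), and there the groups overlapped. Porcn, the acyltransferase that attaches the lipid to Wnt proteins, was upregulated 1.73-fold with its single probe set (7.81 ± 0.11 in dnBrg1 and 7.02 ± 0.08 in wild type lenses, SD, n = 4; adjusted p = 0.00028).

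Among the ligands, Wnt5b gave the decrease of largest size and also an increase. With set 1 (1439373_x_at) Wnt5b read 10.05, 10.08, 10.21 and 10.23 in dnBrg1 lenses, against 11.59, 11.61, 11.35 and 11.56 in wild type lenses. This is a 2.60-fold decrease without overlap (-1.38 ± 0.10, adjusted p = 2.3e-05). The name of set 1 ends in _x_at, which on these arrays marks probe sets with probes that also match other sequences. With set 2 Wnt5b was upregulated, at 9.48 ± 0.14 in dnBrg1 and 8.92 ± 0.26 in wild type lenses (SD, n = 4; 0.56 ± 0.14, adjusted p = 0.012), a call lost with the described RNA fraction as a covariate (0.45, adjusted p = 0.090) and with dnBrg1 replicates 1 and 2 alone (0.45, adjusted p = 0.13). Wnt5a, which like Wnt5b is best known for signals without β-catenin, was downregulated with set 2, at 7.72 ± 0.13 in dnBrg1 and 8.36 ± 0.16 in wild type lenses (SD, n = 4; -0.64 ± 0.12, adjusted p = 0.0020). Its set 1 had a value of -0.54 ± 0.29 (adjusted p = 0.17), and dnBrg1 replicate 3 read 7.35 there while the other dnBrg1 samples were between 8.17 and 8.22. Wnt7a did not pass (-0.10 ± 0.15, adjusted p = 0.62). Wnt7b, the ligand that macrophages supply to the vessels around the lens, was upregulated with set 2 (0.62 ± 0.14, adjusted p = 0.0061; 0.58 and adjusted p = 0.064 with dnBrg1 replicates 1 and 2 alone) and not called with set 1 (0.25 ± 0.14, adjusted p = 0.18). The macrophage markers themselves were split, with Csf1r (-2.13) and C1qb (-2.15) lower and Fcgr3 (0.60), Cx3cr1 (0.71) and Lyz2 (0.90) higher, and their part in the Wnt7b values was not tested.

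The core letters that TCF/LEF factors bind, CTTTGA, were looked for on both strands in the 250 bases before the RefSeq starts of these genes (build GRCm38.p6), since several of the genes measured here are also known as targets of the pathway. RefSeq windows were at hand for 23 of the 36 genes. The letters stood in 4 of their 32 windows (12.5%), against 13.8% of 32851 windows of all genes, so their frequency was near that of all windows. The 4 genes were Wnt5b, Gsk3b, Fzd1 and Lef1. The stretches around the match in Wnt5b and Gsk3b, whose transcripts were called in opposite directions with their brightest probe sets, are shown 5′ to 3′ on the strand of the gene, with the match in capitals (TCAAAG is the same letters read on the other strand).
Wnt5b, chr6:119449415-119449494, minus strand: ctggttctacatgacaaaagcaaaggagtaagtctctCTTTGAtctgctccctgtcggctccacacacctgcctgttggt
Gsk3b, chr16:38088887-38088966, plus strand: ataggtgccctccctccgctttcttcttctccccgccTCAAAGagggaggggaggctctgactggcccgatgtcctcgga
The match begins 71 bases before the start in Wnt5b, at 1 of its 3 RefSeq starts, and 77 bases before it in Gsk3b. A match is a description of the letters and not evidence of a binding site.

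Receptor transcripts were mostly not called on their brightest probe sets. The polarity protein gene Vangl2 was counted with the receptor genes. Of 21 probe sets for these 11 genes, 6 were called higher, 2 lower and 13 were not called. The share called was 38.1%, against 40.8% of all probe sets. The Frizzled genes contributed 4 of the increases and none of the decreases among 14 probe sets for 6 genes. Of all probe sets on the array 19.8% were called higher and 21.0% lower. Fzd2 read 7.71, 7.59, 7.65 and 7.80 with set 3 (1418532_at) in dnBrg1 lenses, against 6.53, 6.52, 6.69 and 5.41 in wild type lenses, a 2.63-fold increase (1.40 ± 0.25, adjusted p = 0.0020). Wild type replicate 4 was far below the other wild type samples, and the groups did not overlap. Set 2 of Fzd2 was also called higher (0.78 ± 0.16, adjusted p = 0.0043), while set 1 averaged 11.27 ± 0.03 in dnBrg1 and 11.46 ± 0.13 in wild type lenses (SD, n = 4) and did not pass (-0.19 ± 0.10, adjusted p = 0.14). Fzd3, a receptor of the polarity branch, was upregulated with set 3 alone (0.75 ± 0.11, adjusted p = 0.00060), and its other probe sets lay between -0.36 and -0.30 without a call. Fzd7 was upregulated 1.45-fold with set 1 (11.54 ± 0.10 in dnBrg1 and 11.01 ± 0.29 in wild type lenses, SD, n = 4; adjusted p = 0.017). This call was lost with the RNA fraction covariate (0.58, adjusted p = 0.052) and with dnBrg1 replicates 1 and 2 alone (0.58, adjusted p = 0.078). Its set 2 averaged 4.51 in dnBrg1 and 4.60 in wild type lenses. That is within the range of the array's 15 probe sets for bacterial transcripts, whose means were between 2.67 and 4.88, as was set 2 of Fzd4.

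Fzd6, another receptor of the polarity branch, was not called. With set 1 it read 10.75, 10.79, 10.76 and 10.92 in dnBrg1 lenses and 10.55, 10.39, 10.86 and 10.04 in wild type lenses (0.35 ± 0.16, adjusted p = 0.12). With set 2 it read 7.46, 7.77, 7.37 and 7.39 in dnBrg1 lenses and 7.50, 6.78, 8.25 and 7.26 in wild type lenses (0.05 ± 0.27, adjusted p = 0.90). The dnBrg1 samples lay inside the wild type range in set 2, and the wild type samples were the more scattered in both. Fzd1 (0.18 ± 0.15) and both probe sets of Fzd4 (-0.22 ± 0.24 and 0.20 ± 0.12), a receptor needed for eye vessels, did not pass either.

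The Lrp6 co-receptor gene had probe sets called in opposite directions. Set 1 was lower (11.03 ± 0.19 in dnBrg1 and 11.52 ± 0.21 in wild type lenses, SD, n = 4; -0.50 ± 0.14, adjusted p = 0.019) and set 2 was higher (7.60 ± 0.22 in dnBrg1 and 6.68 ± 0.10 in wild type lenses, SD, n = 4; 0.93 ± 0.13, adjusted p = 0.00041). The call of set 1 was lost without dnBrg1 replicate 3 (-0.43, adjusted p = 0.056) or dnBrg1 replicate 4 (-0.48, adjusted p = 0.051), with the RNA fraction covariate (-0.38, adjusted p = 0.13) and with dnBrg1 replicates 1 and 2 alone (-0.38, adjusted p = 0.17). Lrp5 read 6.61 ± 0.20 in dnBrg1 and 6.59 ± 0.62 in wild type lenses (SD, n = 4; 0.02 ± 0.27, adjusted p = 0.95).

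Ror2 and Ryk belong to the branch without β-catenin, and both had a probe set that changed by more than 2-fold. Ror2, a receptor tyrosine kinase for Wnt5a, read 6.43, 6.74, 6.48 and 6.85 in dnBrg1 lenses, against 8.27, 8.53, 7.41 and 8.14 in wild type lenses with its single probe set (1423428_at). It was downregulated 2.75-fold (-1.46 ± 0.22, adjusted p = 0.00079), and the lowest wild type sample, replicate 3, was still above all dnBrg1 samples. Ryk, a kinase-related Wnt receptor, read 9.14, 9.10, 9.13 and 9.06 in dnBrg1 lenses, against 7.51, 7.43, 7.85 and 7.73 in wild type lenses with set 2 (1451789_a_at). This 2.79-fold increase (1.48 ± 0.11, adjusted p = 2.6e-05) stood beside set 1, where the groups overlapped at 9.91 ± 0.08 in dnBrg1 and 9.94 ± 0.15 in wild type lenses (SD, n = 4; -0.03 ± 0.11, adjusted p = 0.84). Vangl2, the polarity protein gene, did not pass (0.26 ± 0.14, adjusted p = 0.17).

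**Figure D2:**
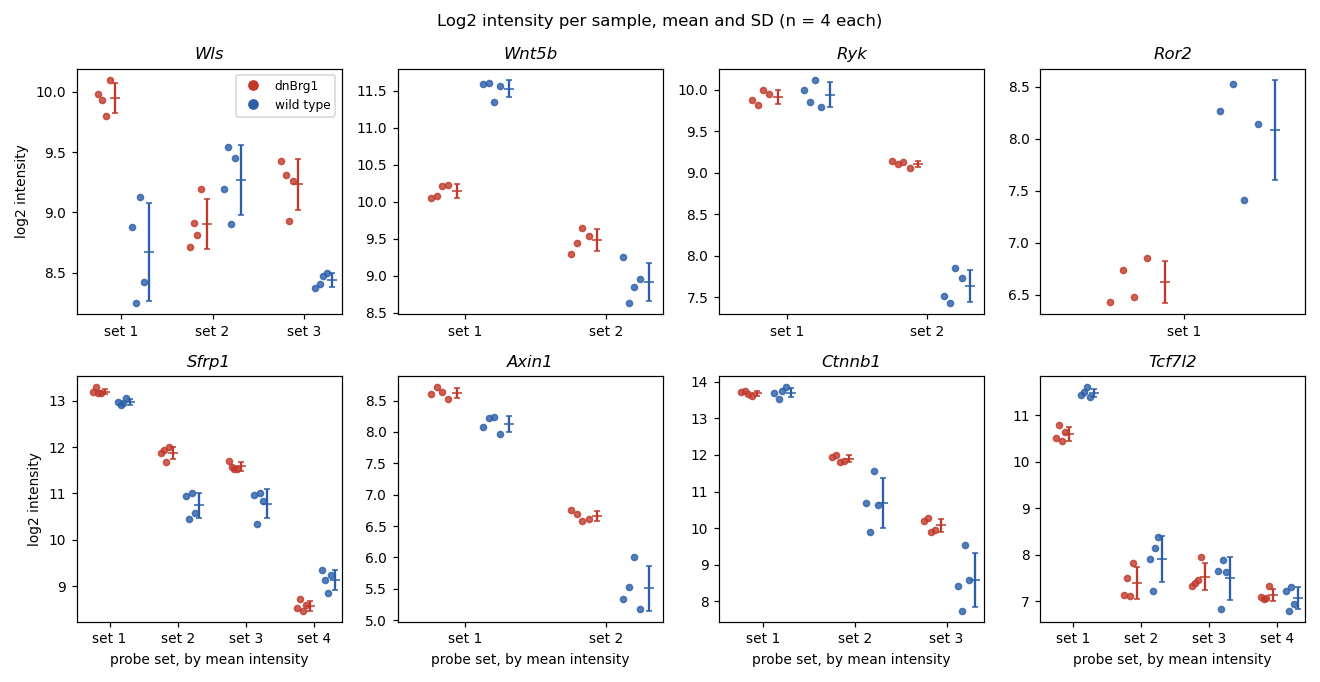
Log2 intensity (vertical axis) in each sample for every probe set of 8 Wnt pathway genes (horizontal axis, ranked by mean intensity), in dnBrg1 (red) and wild type (blue) lenses; dashes mark means and bars extend 1 SD (n = 4). The dnBrg1 samples of Ror2 lie between 6.43 and 6.85, below all wild type samples, and Ryk separates the groups with set 2 and not with set 1.

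Secreted modulators bind Wnt proteins or their receptors outside the cell. Of their 7 probe sets, 2 were called higher, 1 lower and 4 were not called (42.9% called, against 40.8% of all probe sets). Sfrp1, a decoy with a Frizzled-like domain, had all of these calls. With set 2 (1416594_at) it read 11.87, 11.94, 11.68 and 12.00 in dnBrg1 lenses, against 10.95, 10.45, 11.00 and 10.57 in wild type lenses, a 2.19-fold increase without overlap (1.13 ± 0.15, adjusted p = 0.00031). With set 3 it read 11.71, 11.57, 11.52 and 11.53 in dnBrg1 lenses, against 10.96, 10.33, 11.00 and 10.84 in wild type lenses (0.80 ± 0.15, adjusted p = 0.0027). Both sets therefore put every dnBrg1 sample above every wild type sample. Set 4, another _x_at probe set, ran the other way, with 8.53, 8.71, 8.47 and 8.58 in dnBrg1 lenses and 9.34, 9.13, 8.84 and 9.24 in wild type lenses (-0.56 ± 0.13, adjusted p = 0.0061). With dnBrg1 replicates 1 and 2 alone set 4 did not pass (-0.51, adjusted p = 0.070). In set 1 Sfrp1 read 13.19, 13.29, 13.16 and 13.16 in dnBrg1 lenses and 12.98, 12.92, 12.96 and 13.07 in wild type lenses, which did not overlap but did not pass the test (0.22 ± 0.09, adjusted p = 0.086). Sfrp2, a second decoy of this family, read 13.10, 13.05, 13.06 and 12.72 in dnBrg1 lenses and 13.25, 13.35, 13.29 and 13.21 in wild type lenses (-0.29 ± 0.11, adjusted p = 0.063). The groups did not overlap there either, and dnBrg1 replicate 4 was the lowest. Dkk3, a secreted member of the Dickkopf family, had values of 0.16 ± 0.09 and 0.27 ± 0.11 and was not called.

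Of the 16 probe sets for cytoplasmic components, 5 were called higher (31.2%) and none lower. Of all probe sets 19.8% were called higher and 21.0% lower. Axin1, the scaffold of the β-catenin destruction complex, was the only gene of the 24 with several probe sets in which all were called in the same direction. It was upregulated with set 1 (8.62 ± 0.08 in dnBrg1 and 8.13 ± 0.13 in wild type lenses, SD, n = 4; 0.49 ± 0.10, adjusted p = 0.0044). With set 2 (1426967_at) it read 6.75, 6.69, 6.58 and 6.61 in dnBrg1 lenses, against 5.33, 5.53, 6.00 and 5.18 in wild type lenses (2.22-fold, 1.15 ± 0.17, adjusted p = 0.00058). The dnBrg1 samples were above all wild type samples in both sets. Gsk3b, the kinase whose window is shown above, was upregulated 1.42-fold with its single probe set (10.22 ± 0.06 in dnBrg1 and 9.72 ± 0.17 in wild type lenses, SD, n = 4; adjusted p = 0.0050). Apc, the second scaffold, was upregulated with set 2 (1420957_at), which read 9.46, 9.49, 9.75 and 9.85 in dnBrg1 lenses, against 8.58, 8.05, 9.02 and 8.67 in wild type lenses (2.08-fold, 1.06 ± 0.20, adjusted p = 0.0023). Its set 1 (-0.16 ± 0.15, adjusted p = 0.40) and set 3 (0.49 ± 0.18, adjusted p = 0.056) did not pass.

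Axin2 is both an inhibitor of the pathway and a widely used readout of it. With set 1 it read 9.63, 9.74, 9.72 and 9.77 in dnBrg1 lenses and 9.50, 9.47, 9.97 and 9.63 in wild type lenses, and the dnBrg1 samples lay inside the wild type range (0.08 ± 0.13, adjusted p = 0.66). With set 2 it read 5.84, 5.92, 6.18 and 6.02 in dnBrg1 lenses and 5.25, 5.18, 5.90 and 5.46 in wild type lenses (0.54 ± 0.17, adjusted p = 0.026). These groups overlapped through wild type replicate 3. The call was lost without dnBrg1 replicate 3 (0.48, adjusted p = 0.071) or 4 (0.54, adjusted p = 0.061) or wild type replicate 1 (0.48, adjusted p = 0.068), 2 (0.46, adjusted p = 0.061) or 4 (0.55, adjusted p = 0.053). It was also lost with the RNA fraction covariate (0.44, adjusted p = 0.15), with dnBrg1 replicates 1 and 2 alone (0.44, adjusted p = 0.19) and in the methods' t-test after Benjamini-Hochberg adjustment (adjusted p = 0.059). Nkd1, another feedback inhibitor induced by the pathway, had a value of 0.25 ± 0.11 (adjusted p = 0.11). The kinase gene Csnk1a1 and the Dishevelled genes Dvl1 and Dvl2 had no called probe set, with log2 fold changes between -0.57 (Dvl2, adjusted p = 0.056) and 0.32 (Dvl2, set 2, adjusted p = 0.081).

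Ctnnb1, which encodes β-catenin, was split between its probe sets. Set 1, the brightest, read 13.72, 13.75, 13.66 and 13.61 in dnBrg1 lenses and 13.69, 13.54, 13.74 and 13.85 in wild type lenses, and the groups overlapped (-0.02 ± 0.10, adjusted p = 0.90). Set 2 (1450008_a_at) read 11.94, 12.01, 11.82 and 11.84 in dnBrg1 lenses, against 10.69, 9.89, 11.56 and 10.64 in wild type lenses (2.31-fold, 1.21 ± 0.29, adjusted p = 0.0085; 1.28 and adjusted p = 0.056 with dnBrg1 replicates 1 and 2 alone). Set 3 (1430533_a_at) read 10.18, 10.27, 9.90 and 9.94 in dnBrg1 lenses, against 8.41, 7.74, 9.53 and 8.58 in wild type lenses (2.84-fold, 1.50 ± 0.32, adjusted p = 0.0044). In sets 2 and 3 the dnBrg1 samples were close together while the wild type samples spread over more than a log2 unit, with replicate 3 highest and replicate 2 lowest. The array's 3' minus 5' control difference had the reverse order at these ends, being smallest in wild type replicate 3 (1.43) and largest in replicate 2 (2.66). A fit that includes this difference is given with the other probe sets.

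**Figure D3:**
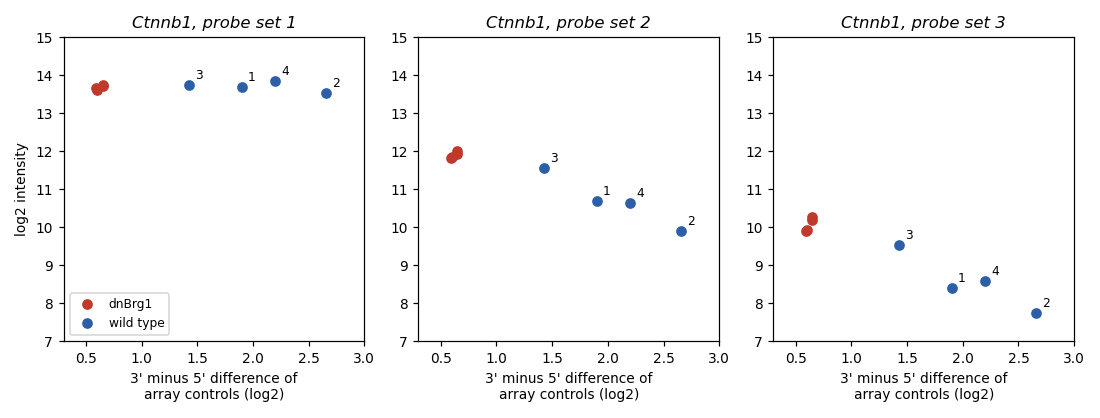
Log2 intensity of the 3 Ctnnb1 probe sets (vertical axis) against the 3' minus 5' difference averaged over both array controls (horizontal axis, log2) in dnBrg1 (red) and wild type (blue) samples; numbers are wild type replicates. With set 2 the wild type samples run from 11.56 in replicate 3 to 9.89 in replicate 2, while with set 1 all 8 samples lie between 13.54 and 13.85.

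Among the nuclear factors 4 of 15 probe sets were called higher and 1 lower, or 33.3% in all, against 40.8% of all probe sets. The decrease was that of Tcf7l2, a TCF factor that can activate or repress. With set 1 it averaged 10.60 ± 0.15 in dnBrg1 and 11.48 ± 0.09 in wild type lenses (SD, n = 4), a 1.84-fold decrease without overlap (-0.88 ± 0.11, adjusted p = 0.00025). The other Tcf7l2 probe sets had values of -0.52 (adjusted p = 0.13), 0.04 (adjusted p = 0.91) and 0.06 (adjusted p = 0.74). Tcf7l1, the family member that acts mainly as a repressor, was upregulated with set 2 (0.38 ± 0.12, adjusted p = 0.031), and set 1 did not pass (0.31 ± 0.13, adjusted p = 0.084). The set 2 call was lost without dnBrg1 replicate 1 (0.39, adjusted p = 0.066), 3 (0.33, adjusted p = 0.084) or 4 (0.38, adjusted p = 0.071) or wild type replicate 1 (0.32, adjusted p = 0.080) or 4 (0.37, adjusted p = 0.070), with the RNA fraction covariate (0.29, adjusted p = 0.18) and with dnBrg1 replicates 1 and 2 alone (0.29, adjusted p = 0.22). The replicate block lost this call as well (0.38, adjusted p = 0.053). Lef1 read 4.22, 4.68, 3.87 and 4.38 in dnBrg1 lenses and 4.58, 3.96, 4.75 and 4.58 in wild type lenses. These values lie within the range of the bacterial controls and the groups overlapped (-0.18 ± 0.21, adjusted p = 0.53), so no difference in Lef1 was detectable here. Among the corepressors, Tle1 was called higher with set 2 (0.57 ± 0.20, adjusted p = 0.0495) and not with set 1 (0.54 ± 0.23, adjusted p = 0.093). The Tle1 call was lost without any 1 of dnBrg1 replicates 1 to 4 and wild type replicates 1 and 3 (0.39 to 0.63, adjusted p = 0.064 to 0.12). It was also lost with the RNA fraction covariate (0.66, adjusted p = 0.094), with dnBrg1 replicates 1 and 2 alone (0.66, adjusted p = 0.13), with 16 added before log2 (0.52, adjusted p = 0.055), with arrays centred on their medians (0.53, adjusted p = 0.052) and with trend and robust settings (0.57, adjusted p = 0.051). The replicate block (adjusted p = 0.098) and the methods' t-test after Benjamini-Hochberg adjustment (adjusted p = 0.11) lost the Tle1 call too. Tle2 (-0.25 ± 0.15, adjusted p = 0.23) and the β-catenin inhibitor gene Ctnnbip1 (-0.29 ± 0.13 and 0.11 ± 0.18) were not called.

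Probe sets of the same Wnt gene thus differed in several cases, and opposite calls were about as frequent as over all genes. Of the 24 genes with several probe sets, 3 (Wnt5b, Lrp6 and Sfrp1) had probe sets called in opposite directions, which is 12.5%, against 13.8% of all such genes on the array. In 13 some probe sets were called in a single direction and the rest not, and in 7 none was called. Shares over all genes are not given for the counts of 13 and 7, so they are no result about the Wnt genes. The second brightest probe set had the higher log2 fold change in 19 of the 24 genes (79.2%), against 60.9% of all 4956 genes with several. In 6 of the 22 Wnt probe sets called higher (27.3%, against 22.4% of all called higher) the wild type samples fell strictly in the order in which the control difference grew, replicates 3, 1, 4 and 2. These were Wls set 1, Fzd3 set 3, Fzd7 set 1, Sfrp1 sets 2 and 3 and Ctnnb1 set 2. Ctnnb1 set 3 was not among them, since wild type replicate 1 (8.41) read below replicate 4 (8.58). None of the 6 called lower had wild type samples that rose in this order (20.2% of all called lower did). With this difference as a covariate (the control covariate), 2 of the 28 calls were kept, 21 had the same sign but did not pass and 5 had the opposite sign without a call. The share kept was 7.14%, against 11.8% of all 9229 called probe sets, and 6.37% of all probe sets were called in that fit. The 2 kept were Wnt5b set 1 (-1.12, adjusted p = 0.027) and Ryk set 2 (1.09, adjusted p = 0.033). Those that turned were Ctnnb1 sets 2 (-0.60) and 3 (-0.36), Fzd7 set 1 (-0.23), Axin2 set 2 (-0.21) and Apc set 2 (-0.0046). Among those with the same sign, Wls set 3 (0.79), Porcn (0.59), Gsk3b (0.39), Axin1 set 1 (0.44) and Tcf7l2 set 1 (-0.99, adjusted p = 0.058) were smaller by less than 1.5 times or larger, while Wls set 1 (0.21), Ror2 (-0.28), Sfrp1 set 2 (0.46) and set 3 (0.05), Fzd2 set 3 (0.90) and Axin1 set 2 (0.62) shrank more. Fzd6 set 2 (-1.59, adjusted p = 0.026) and Dvl2 set 1 (-1.56, adjusted p = 0.049) were called lower in this fit and not without the covariate. The covariate nearly follows genotype, and the median standard error was 0.289 with it and 0.141 without it. A transcript that lost its call there is not thereby unchanged.

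**Figure D4:**
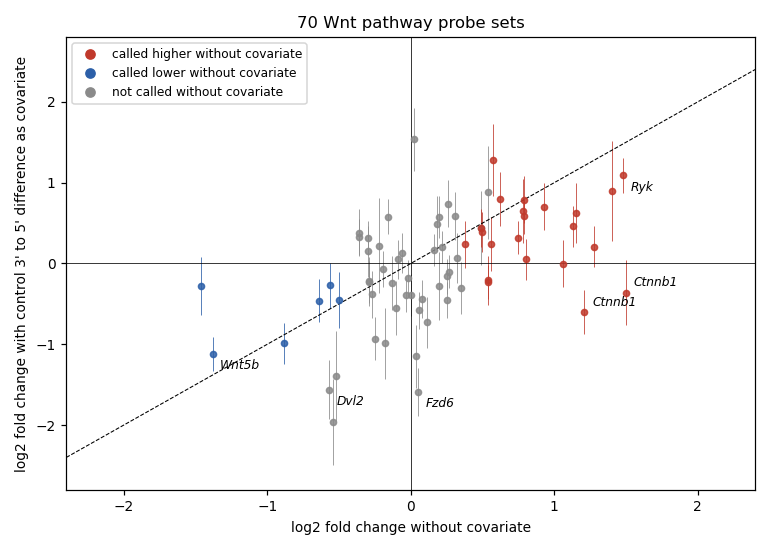
Log2 fold change of the 70 Wnt pathway probe sets without (horizontal axis) and with (vertical axis) the control covariate; bars are standard errors of the fit with it, and the dashed line marks equal values. Wnt5b and Ryk kept their calls at -1.12 and 1.09, and both labelled Ctnnb1 probe sets lie below 0 with the covariate.

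Other genes of the pathway were followed on their brightest probe sets, 72 of the 87 listed. Of these 18 (25.0%, against 17.5% of all genes) were upregulated and 14 (19.4%, against 23.3%) downregulated, with a median log2 fold change of -0.13, against -0.11 over all genes. The decreases of largest size were those of Scrib (-2.01 ± 0.12), a polarity scaffold, Celsr3 (-1.25 ± 0.22), a polarity cadherin, Gsk3a (-1.23 ± 0.13), the second Gsk3 kinase, and Csnk1e (-0.93 ± 0.24), a casein kinase that acts on Dishevelled. Called higher by the most were Tle5 (1.20 ± 0.12), a short Tle protein that counters the other corepressors, Csnk1g1 (1.19 ± 0.26), a casein kinase, Notum (1.07 ± 0.16), the secreted enzyme that removes the Wnt lipid, and Cby1 (1.05 ± 0.12), an inhibitor of β-catenin. Adjusted p-values of these 8 genes were between 1e-05 and 0.011, and the groups did not overlap in any of them. Of 22 further probe sets of the 72 genes 9 were called higher (40.9%) and 1 lower (4.55%). The shares over the dimmer probe sets of all genes were 24.9% and 18.0%. Csnk1d alone gave several of these increases (0.58, 1.38 and 1.20). The further probe set of Csnk1e was called in the opposite direction to its brightest (1.30). Gsk3a and Gsk3b, which share their role in the destruction complex, were thus called in opposite directions. With the control covariate Scrib kept its call (-1.46, adjusted p = 0.013), and the other 7 did not pass. With the described RNA fraction as a covariate 13 of the 72 genes were called higher and 10 lower, beside 3443 and 3114 of all 22626 probe sets. With dnBrg1 replicates 1 and 2 alone 11 of the 72 genes were called higher and 7 lower, beside 3040 and 2600 of all probe sets.

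Of 26 genes commonly used as targets of β-catenin and TCF, 22 had a probe set, and the 3 of them that belong to the group above are Axin2, Nkd1 and Lef1. On the brightest probe sets 5 were upregulated and 5 downregulated (22.7% each), against 17.5% and 23.3% of all genes. The median was -0.06, against -0.11 over all genes. Sox9 (-1.35 ± 0.24, adjusted p = 0.0016), Tbx3 (-0.87 ± 0.19, adjusted p = 0.0051), Ephb3 (-0.61 ± 0.10, adjusted p = 0.0013) and Sp5 (-0.59 ± 0.10, adjusted p = 0.0014) gave the decreases of largest size, and second probe sets of Sox9 (-2.50) and Tbx3 (-1.11) were also called lower. Notum, Lgr5 (0.94 ± 0.24, adjusted p = 0.012), a receptor for R-spondins, Myc (0.63 ± 0.21, adjusted p = 0.038) and Dkk1 (0.45 ± 0.15, adjusted p = 0.037), a secreted inhibitor of Lrp5 and Lrp6, gave the corresponding increases. The groups overlapped for Myc and Dkk1, and both Lgr5 in wild type lenses (4.10 ± 0.56, SD, n = 4) and Sp5 in dnBrg1 lenses (4.44 ± 0.09, SD, n = 4) averaged within the range of the bacterial controls. With the control covariate Ephb3 kept its call (-0.88, adjusted p = 0.048), and the other 7 did not pass. Of 19 further probe sets of these targets 7 were called higher (36.8%) and 4 lower (21.1%). The shares over the dimmer probe sets of all genes were 24.9% and 18.0%. Most of the 7 increases were probe sets of Ccnd2 alone, and the rest belonged to Axin2 and Id2. Ccnd2, a cyclin gene named after its values were seen, was not called on its brightest probe set (0.02), while its further probe sets were called higher at 2.36, 2.23, 2.21, 3.02 and 1.83 and lower at -0.99. Likewise Id2, an inhibitor of differentiation, was not called on its brightest probe set (0.18) and was called higher with set 2 (1.33). These genes respond to other signals as well, and the retina markers that were lower in dnBrg1 lenses were Rax (-1.05), Atoh7 (-1.08) and Crx (-0.78), whose part in the decreases was not tested.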

How the data were processed

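The authors hybridized amplified, biotin-labeled RNA of E15.5 lenses to Affymetrix mouse genome arrays and processed the scans with robust multichip average (RMA, version not given in the sources used here). The deposited values are intensities on a linear scale, which were taken to log2 here. RMA makes the arrays' distributions alike, so shifts common to most transcripts are lost. Groups came from the titles and genotypes, and p-values measure the spread between samples, which the design text calls biological replicates. Of 22690 probe sets, 64 array controls were set aside and 22626 tested, dnBrg1 minus wild type, with lmFit and eBayes of limma 3.58.1 (R 4.3.3), with Benjamini-Hochberg adjustment over all of them and a threshold of 0.05. Platform annotation names 1 gene for 20380 of these, several for 691 and none for 1555, and only the first were used for genes. The brightest probe set of a gene has the highest mean log2 intensity of the 8 samples. The step was tested on simulated data with known changes in a small part of the probe sets and independent noise. That simulation held no 3' to 5' difference between the groups, so it does not show how calls behave under it. The 3' to 5' difference of array controls was compared by an exact permutation test. Every gene of the group is named. Values of each sample are given for Wls, Ctnnb1, Axin2, Lef1, Sfrp1, Sfrp2 and Fzd6, and for called probe sets without overlap and with at least a 2-fold change (1 on the log2 scale). From the other lists up to 4 called genes in each direction with the changes of largest size were named. The genes, lists and tests were chosen with earlier results of these data known, and markers named individually were chosen after their values were seen. The number of arrays limits the precision. Alternatives covered the replicate number as a block, median centring, a constant of 16 added before log2, probe sets at or above the median mean alone, the variance model, array weights, the control covariate, the described RNA fraction, a threshold of 0.01, the methods' t-test, averaging a gene's probe sets and each sample left out. Promoter windows are RefSeq's, build GRCm38.p6.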

Additional observations from a re-analysis of the deposited data

Results flagged for a closer look

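In 140 groups of 4 values (70 probe sets, 2 genotypes), 5 had a sample whose gap to the nearest other exceeded Dixon's critical value for 4 samples, where chance alone gives about 1 in 20, or 7 groups. In dnBrg1 lenses, replicate 3 was low for Wnt5a set 1 (7.35, others 8.17 to 8.22), replicate 4 was high for Wnt7b set 2 (7.38, others 7.19 to 7.22) and replicate 4 was low for Sfrp2 (12.72, others 13.05 to 13.10). In wild type lenses, replicate 4 was low for Fzd2 set 3 (5.41, others 6.52 to 6.69) and replicate 2 was low for Lrp6 set 2 (6.52, others 6.71 to 6.74).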

How the results depend on the processing

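Of the 28 called Wnt probe sets, 19 kept the call in every alternative other than the control covariate, and none changed sign in those. With that covariate 1 Wnt probe set was called higher and 3 lower, 0 and 2 genes on the brightest probe set, 1 and 3 of the other pathway genes, and 808 and 634 of all probe sets. The sign turned for Fzd7 set 1 (-0.23), Axin2 set 2 (-0.21), Apc set 2 (-0.0046) and Ctnnb1 sets 2 (-0.60) and 3 (-0.36), and Fzd6 set 2 was called at -1.59, against 0.05 without it. The methods' t-test at an unadjusted p under 0.05 called 10 Wnt probe sets lower, and 9 genes higher and 7 lower. Of all probe sets it called 4908 higher and 5709 lower. With trend and robust settings 7 genes were lower, beside 4868 of all probe sets. After averaging each gene's probe sets 12 genes were higher. Shares over all genes are not given for these alternatives. Among other pathway genes 10 were higher among bright probe sets alone (fewer are tested there), 11 higher and 7 lower with only dnBrg1 replicates 1 and 2, and 9 lower at a threshold of 0.01. Of all probe sets 3371 were higher among bright probe sets alone, and 3040 were higher and 2600 lower with only those replicates. With the described RNA fraction as a covariate 3114 of all probe sets were lower, and 2820 were lower at 0.01. The cause of these shifts was not tested. With each sample left out, 19 to 24 Wnt probe sets were higher and 5 to 9 lower, 5 to 7 and 3 to 6 genes, and 15 to 18 and 12 to 20 other pathway genes. Over all probe sets these counts were 3924 to 4978 and 3776 to 5194. The Gapdh control difference then ran from -1.13 to -0.67 and the β-actin difference from -2.14 to -1.77.

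With the replicate block 20 Wnt probe sets were higher and 7 lower, beside 4064 and 3899 of all probe sets. Deviations of same-numbered samples of the genotypes correlated at -0.187, -0.0135, -0.0538 and 0.157 for numbers 1 to 4. Those of differently numbered samples were between -0.158 and 0.201. These correlations cannot decide whether same-numbered samples shared a litter, and the main fit did not pair the samples. For Fzd4 set 2, Fzd7 set 2, Dvl2 set 2 and Lef1 the means lay within the range of the bacterial controls, where changes may not be detectable.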
